A study of Caenorhabditis elegans with 4 samples.

Results

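The clec genes of Caenorhabditis elegans encode proteins with a C-type lectin domain. They were taken as all genes whose current symbol is clec followed by a number, and 203 of the 264 such genes in the RefSeq gene table had a probe of their own with values in the arrays described here. Of these 203, 17 are annotated as pseudogenes and the rest as protein coding, and the other 61 genes were not measured. The family was read within a table of 14940 named genes.

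RNA was compared on 4 two-channel arrays. Channel 2 carried total RNA from a prep of glp-4 worms at L4, the final larval stage. The labels number preps 2 to 4, and the array whose label has no number was taken as a separate prep, prep 1. Channel 1 carried a reference of wild-type worms of mixed stages. The product of glp-4 is the synthetase that charges tRNA with valine, and its mutants are known for a germline that does not proliferate at the restrictive temperature. No allele, temperature or staging method is given in the labels. The reference differs from the preps in both genotype and stage, and these 2 differences cannot be told apart on these arrays. The RNA came from whole animals, so fewer cells of a type and less RNA per cell cannot be told apart either.

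The values are log2 ratios between the channels. The direction is not stated in the labels, and the ratio was taken as glp-4 L4 divided by reference, because the sample descriptions set each prep against the reference in that order and because the preps are in channel 2. This direction is likely and not settled, and every "higher" or "lower" rests on it. A value of 1 stands for a ratio of 2, and 0 for equal signal.

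A C-type lectin domain is a compact, disulfide-linked fold that in animals often binds sugars in the presence of calcium, although many members bind other ligands. In C. elegans the family is large, many of its members are predicted to be secreted, and a number of them are known from the intestine, where their transcripts change on infection under the p38 kinase PMK-1 and the GATA factor ELT-2. A few members are known instead from the germline and oocytes, which are scarce or absent in animals without a proliferating germline.

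Most clec genes lay near 0, with a long tail on each side. The mean log2 ratio ran from -5.04 for clec-87 to 4.22 for clec-52. Of the 203 members, 53 were higher (26.1%) and 27 lower (13.3%) by limma with a Benjamini-Hochberg adjusted p under 0.05 over all 19989 items of the table, and 123 did not pass. Over all items 20.6% were called higher and 24.4% lower, 45% in all, so the family's share of higher calls was near the background and its share of lower calls was under it.

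**Figure D1:**
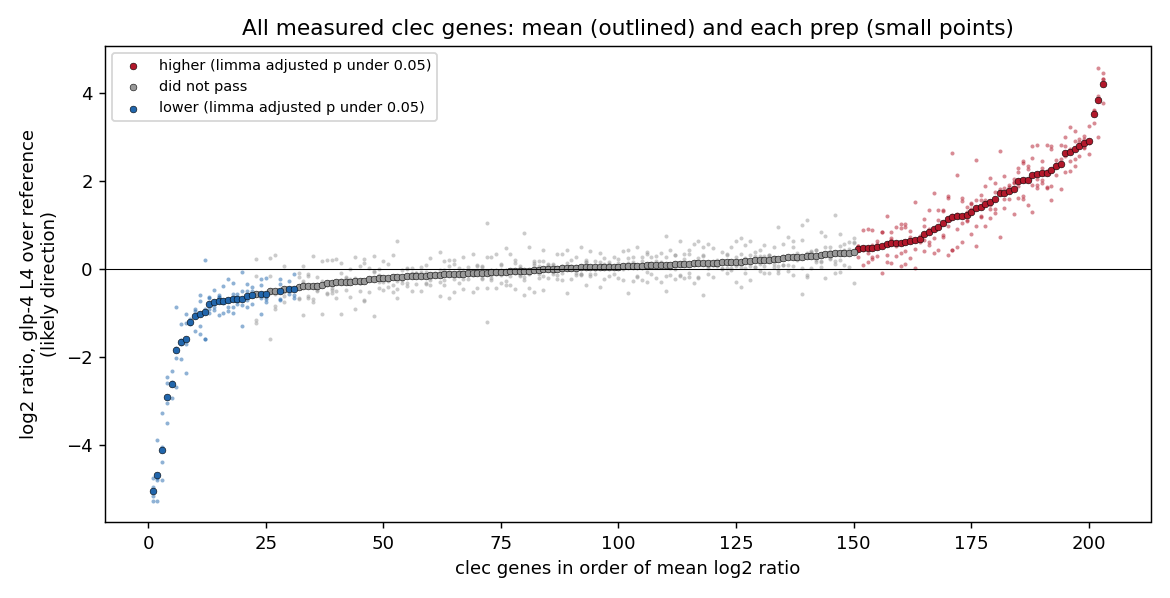
Log2 ratio of glp-4 L4 over reference (vertical axis) for the 203 measured clec genes in order of their mean (horizontal axis), with the mean over preps outlined and each prep as a small point. The 123 members that did not pass lie between -0.57 and 0.40, and the means run on to -5.04 at the left and 4.22 at the right.

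Against a 2-fold change (limma treat, adjusted p under 0.05) 23 members were higher and 6 lower. That is 11.3% and 2.96% of the family, beside 4.38% and 4.21% of all items. The family median was 0.07 ± 0.15 (SD over 4 preps), against -0.02 ± 0.03 over the other named genes. On preps 1 to 4 the family median was 0.20, 0.15, -0.15 and 0.08, so its side of 0 was not the same in every prep. A mean within 0.5 of 0 was found for 63.1% of the members and for 55.0% of the other named genes.

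All 4 preps lay above 0 for 52 of the 53 higher members and below 0 for 26 of the 27 lower ones. The calls were made from these same preps, so 1 sign in all of them was largely given by the call. Across the members Pearson's r between preps ran from 0.89 to 0.94, a description over 201 or 202 genes whose ratios all share 1 kind of reference. Among the 123 members that did not pass, r ran from -0.01 to 0.38. These members were selected from the same preps for not passing, so a low r among them was largely given by the selection. The median SD of a member over preps was 0.31, against 0.30 for the other named genes. Of the calls, 39 higher and 18 lower ones were also made in every fit that left out 1 prep.

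The lowest members were the 3 listed as linked to the germline and oocytes, clec-87 (sequence name C25A1.8, chromosome I), clec-91 (ZK858.3, chromosome I) and clec-88 (K10B2.3, chromosome II). The log2 ratio of clec-87 was -4.97, -4.76, -5.16 and -5.27 on preps 1 to 4, a mean of -5.04 ± 0.22 (SD, n = 4; limma adjusted p = 7.1e-07). For clec-91 it was -4.80, -3.88, -4.76 and -5.27, a mean of -4.67 ± 0.58 (limma adjusted p = 2.6e-06). In every prep both genes lay below all members outside this list.

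The third, clec-88, had -3.28, -4.04, -4.38 and -4.80, a mean of -4.12 ± 0.64 (limma adjusted p = 6.2e-06). Its values spread more than those of clec-87, with prep 1 the least negative. In the order of all 14940 named genes from the bottom, clec-87 was number 3, clec-91 number 15 and clec-88 number 32. All 3 of 3 listed genes were lower, also against a 2-fold change, and their list median was -4.71 ± 0.51 over preps. Among all named genes 24.1% were lower, and 4.69% against a 2-fold change. The list was chosen with results of these data known, so its direction is not independent evidence.

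These values stood beside those of germline and egg genes, which are a description of the same ratios. Of 14 germline markers 14 were lower, with means from -4.91 to -1.72 and a list median of -3.13 ± 0.29. The share of all named genes called lower was 24.1%. Of 12 measured genes of the eggshell and egg surface 12 were lower, from -5.03 for egg-1, a receptor on the egg that sperm need to enter, to -1.10 for mbk-2, a kinase of the oocyte-to-embryo transition. The part of germline RNA content in the lower clec values was not tested.

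The next lowest pair, clec-97 (ZK39.6) and clec-98 (ZK39.7), are direct neighbours on chromosome I. For clec-97 the log2 ratio was -2.45, -2.59, -3.05 and -3.51, a mean of -2.90 ± 0.48, and that of clec-98 was -2.92, -2.32, -2.56 and -2.63, a mean of -2.61 ± 0.25. Both passed (limma adjusted p = 1.3e-05 and 6.4e-06), and both were also lower against a 2-fold change. They belong to a run of 7 neighbouring clec genes on clone ZK39, clec-93 to clec-99, and the other 5 did not pass, with means from -0.50 for clec-93 to 0.08 for clec-96. The values of clec-97 and clec-98 did not overlap those of the other 5 in any prep. This split was chosen from the values.

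Another adjacent pair, clec-222 (C03E10.6) and clec-223 (C03E10.5) on chromosome V, had been listed as linked to males and sperm, an assignment that was not checked here. This list, too, was chosen with results of these data known. For clec-222 the values were -0.85, -1.80, -2.03 and -2.67, a mean of -1.84 ± 0.75. That of clec-223 was -1.04, -0.94, -0.90 and -1.42, a mean of -1.07 ± 0.23. Both were lower (limma adjusted p = 0.00068 and 0.00054), neither against a 2-fold change, and their median was -1.45 ± 0.45 over preps. Of 7 sperm markers 5 were lower and 1 higher, with a list median of -1.52 ± 0.16 and means from -3.86 to 1.10. Shares over all named genes were 24.1% lower and 23.4% higher.

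Of the other lower members, 3 had a mean of at most -1.20. The gene clec-264 (F31D4.4, chromosome V) had -1.25, -1.61, -1.70 and -2.05, a mean of -1.65 ± 0.33 (limma adjusted p = 8.9e-05). For clec-196 (F26D10.12, chromosome IV) it was -2.36, -1.23, -1.03 and -1.71, a mean of -1.58 ± 0.59 (limma adjusted p = 0.00059). For clec-19 (F36H5.6, chromosome II) it was -1.25, -1.14, -1.21 and -1.20, a mean of -1.20 ± 0.04 (limma adjusted p = 0.00015). The preps were nearly the same for clec-19 and furthest apart for clec-196, where prep 1 was the most negative. A mean of -1.02 ± 0.43 was found for clec-249, and the ratios of the remaining lower members were small, with means between -0.96 and -0.44 for 16 of the 27.

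**Figure D2:**
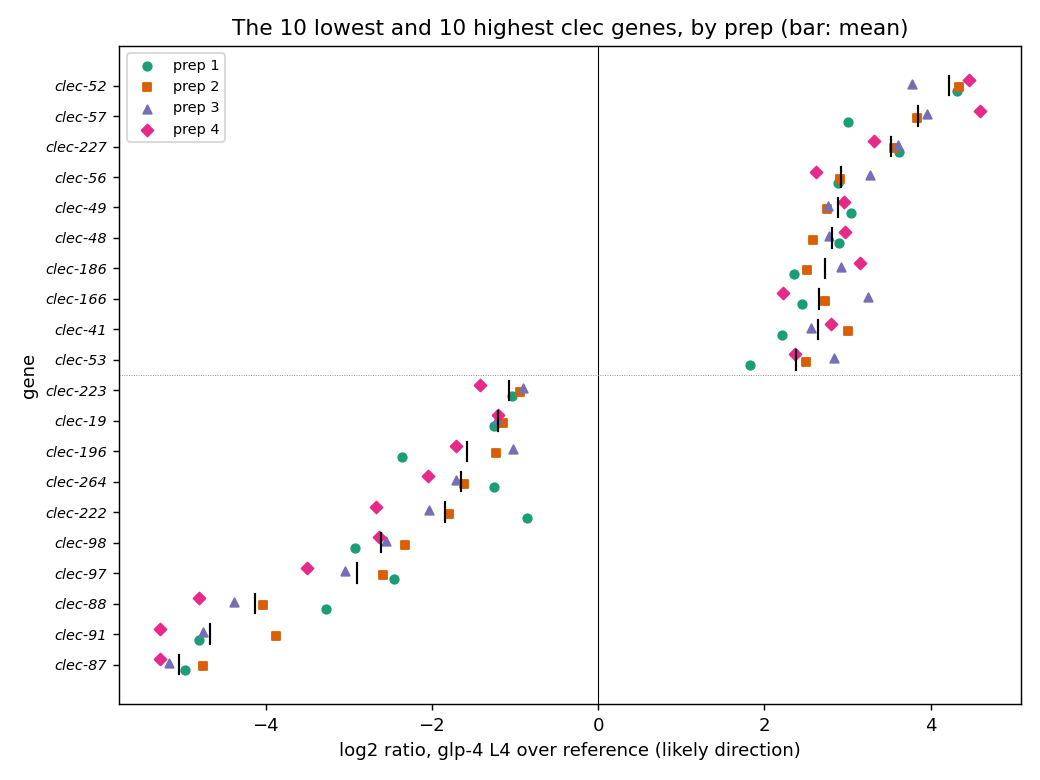
Log2 ratio of glp-4 L4 over reference (horizontal axis) in each of the 4 preps for the 10 highest and the 10 lowest clec genes (vertical axis), with a bar at the mean. All 4 preps of each gene lie on one side of 0, and clec-87, clec-91 and clec-88 lie furthest to the left.

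The highest member was clec-52 (B0218.8, chromosome IV), known from the intestinal response to bacteria. Its log2 ratio was 4.32, 4.34, 3.78 and 4.46 on preps 1 to 4, a mean of 4.22 ± 0.30 (limma adjusted p = 1.5e-06). It was number 27 from the top of all named genes. Its neighbour on the same clone, clec-51, had a smaller mean of 1.04 ± 0.34 and was also higher (limma adjusted p = 0.0011).

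The next 3 members lie side by side on clone F08H9 of chromosome V, in the order clec-57, clec-227 and clec-56. In clec-57 the log2 ratio was 3.01, 3.84, 3.95 and 4.59, a mean of 3.85 ± 0.65 (limma adjusted p = 8.7e-06). For clec-227 it was 3.62, 3.56, 3.61 and 3.32, a mean of 3.53 ± 0.14 (limma adjusted p = 1.6e-06). For clec-56 it was 2.88, 2.91, 3.27 and 2.63, a mean of 2.92 ± 0.27 (limma adjusted p = 4.1e-06). The same clone holds clec-54, higher at 1.59 ± 0.32, and clec-55, which did not pass at 0.07 ± 0.24, so the ratios ran from 3.85 to 0.07 within 5 neighbours. The roles of clec-54 to clec-57 and clec-227 are left out here as not known with certainty.

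Below these came clec-49, clec-48, clec-186, clec-166, clec-41 and clec-53. The log2 ratio of clec-49 (W04E12.6, chromosome V), which is known from resistance to bacterial pathogens, was 3.04, 2.76, 2.77 and 2.96, a mean of 2.88 ± 0.14. For clec-48 (C14A6.1, chromosome V) it was 2.90, 2.58, 2.78 and 2.97, a mean of 2.81 ± 0.17, and for clec-186 (ZK896.7, chromosome IV) it was 2.35, 2.51, 2.92 and 3.15, a mean of 2.73 ± 0.37. These 3 differed by less than the spread of clec-186 between preps.

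Somewhat lower, clec-166 (F38A1.5, chromosome IV) had 2.46, 2.73, 3.24 and 2.23, a mean of 2.66 ± 0.44. For clec-41 (B0365.6, chromosome V), known from the response to Bacillus thuringiensis, it was 2.21, 3.00, 2.57 and 2.80, a mean of 2.65 ± 0.34. For clec-53 (T03F1.10, chromosome I) it was 1.83, 2.503, 2.83 and 2.37, a mean of 2.38 ± 0.42. All 6 genes from clec-49 to clec-53 passed, with limma adjusted p of at most 2.5e-05, and were also higher against a 2-fold change. In all, 19 members had a mean of at least 2, and 5 had a mean of at most -2.

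Other higher members with large ratios have no role given here, and they were picked after their values were seen. The log2 ratio of clec-10 (C03H5.1, chromosome II) was 2.15, 2.39, 2.48 and 2.38, a mean of 2.35 ± 0.14 (limma adjusted p = 6.7e-06). For clec-180 (F32E10.3, chromosome IV) it was 1.57, 1.90, 2.73 and 2.80, a mean of 2.25 ± 0.61 (limma adjusted p = 0.0001), and for clec-26 (T20B3.12, chromosome V) it was 1.61, 1.89, 2.21 and 2.31, a mean of 2.01 ± 0.32 (limma adjusted p = 3.2e-05). The preps lay close together for clec-10 and further apart for clec-180. On the lower side clec-1 (F25B4.9, chromosome V) had -0.91, -0.99, -0.65 and -0.63, a mean of -0.79 ± 0.18 (limma adjusted p = 0.002), and clec-79 and clec-78 on clone F47C12 of chromosome IV had means of -0.76 ± 0.20 and -0.68 ± 0.10.

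The list of members linked to infection and the intestine was mostly higher. Of 30 listed genes 21 had a value, and 14 of them were higher, 1 was lower and 6 did not pass, with a list median of 1.39 ± 0.17 over preps. Against a 2-fold change 8 of the 21 were higher and 0 lower. Over all named genes 23.4% were called higher and 24.1% lower. The list was put together from general knowledge with results of these data known, so its direction is not independent evidence.

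The higher members of this list include clec-67, a gene known from studies of intestinal immunity. Its log2 ratio (F56D6.2, chromosome IV) was 1.96, 2.30, 2.04 and 2.46, a mean of 2.19 ± 0.23 (limma adjusted p = 1.3e-05). Its adjacent gene clec-68 (F56D6.1) had 1.47, 2.36, 2.27 and 2.04, a mean of 2.03 ± 0.40 (limma adjusted p = 4.8e-05). The means of the 2 neighbours differed by less than their spread between preps. For clec-210 (Y73C8C.2, chromosome V) the values were 1.84, 2.83, 2.05 and 1.91, a mean of 2.16 ± 0.46 (limma adjusted p = 5.0e-05).

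On clone F35C5 of chromosome II, 5 neighbours, clec-62 to clec-66, were all higher, with means within a narrow range. The largest was clec-62 at 1.88, 1.59, 1.93 and 1.75, a mean of 1.79 ± 0.15. It was followed by clec-66 at 1.52 ± 0.39, clec-64 at 1.41 ± 0.25, clec-63 at 1.29 ± 0.33 and clec-65 at 1.24 ± 0.16. The limma adjusted p of the 5 was at most 0.00035. Of them, clec-62 alone also passed against a 2-fold change. In clec-63, prep 3 stood below the others, at 0.80 against 1.38 to 1.497.

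Of the other higher members of the list, clec-17 (chromosome I) had 1.97, 1.99, 2.06 and 1.25, a mean of 1.82 ± 0.38 (limma adjusted p = 7.5e-05). The gene clec-86 (C54D1.2, chromosome X), known from infection with Staphylococcus aureus, had 0.74, 1.71, 1.83 and 2.68, a mean of 1.74 ± 0.79 (limma adjusted p = 0.0011), and was among the 5 members with the widest spread. Smaller means were found for clec-42 at 1.15 ± 0.63 and clec-7 at 0.86 ± 0.36 (limma adjusted p = 0.0039 and 0.0037). The member that was lower was clec-5 (C35D10.14, chromosome III), at -0.56, -0.32, -1.0 and -0.86, a mean of -0.68 ± 0.30 (limma adjusted p = 0.0080).

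The 6 listed members that did not pass include a known pair of infection genes. The neighbours clec-60 (ZK666.6) and clec-61 (ZK666.7) on chromosome II are known for strong induction by Gram-positive bacteria. The ratio of clec-60 was 0.07, 0.63, 0.28 and -0.29, a mean of 0.17 ± 0.39 (limma adjusted p = 0.45). That of clec-61 was -0.19, -0.47, -0.34 and -0.50, a mean of -0.38 ± 0.14 (limma adjusted p = 0.052), and without prep 1 it was called lower (limma adjusted p = 0.037). On the same clone clec-59 was lower at -0.69 ± 0.32 and clec-58 did not pass at 0.20 ± 0.21. The other listed members that did not pass were clec-265 at 0.36 ± 0.13, clec-218 at 0.22 ± 0.21, clec-39 at -0.13 ± 0.04 and clec-43 at -0.30 ± 0.38, with limma adjusted p from 0.060 to 0.44. Most measured members lie outside the 3 lists, and of those 39 were higher and 21 lower. That most calls fell on them goes with their number and is no result about them. The listed members were called more often, with 3 of 3 and 2 of 2 lower, and 14 higher and 1 lower of 21. Those lists were chosen with results of these data known. In the whole family 26.1% were higher and 13.3% lower, beside 20.6% and 24.4% of all items.

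The same ratios were read for genes that are no clec genes but share the intestine or the pathway. For the counts below, the shares over all named genes were 23.4% higher and 24.1% lower. Of 10 intestine markers 9 were higher and 1 lower, with a list median of 1.44 ± 0.29. Of 29 genes listed as other secreted infection response genes of the intestine, a listing that was not checked, 19 were higher and 6 lower. Their means ran from 6.32 ± 0.20 for irg-5, an infection response gene, to -1.96 ± 0.32 for lys-3, a lysozyme, with a list median of 1.26 ± 0.15. Markers of other tissues were called too. Of 6 epidermis markers 6 were higher, with a list median of 1.75 ± 0.37, and of 4 body wall muscle markers 1 was higher and 0 lower, with a median of 0.28 ± 0.51. Of 4 measured neuron markers 3 were lower, with a median of -0.54 ± 0.37, and of 2 measured pharynx markers 1 was lower, with a median of -0.65 ± 0.30. The GATA factor gene elt-2, counted both as an intestine marker and in the p38 list below, was higher at 0.91 ± 0.32 (limma adjusted p = 0.0022). The part of intestinal or epidermal RNA content in the higher clec values was not tested.

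Genes of the signalling pathway were called at shares near those of all named genes, of which 23.4% were higher and 24.1% lower. Of 15 genes of the p38 pathway and of linked regulators, 4 were higher (26.7%), 3 lower (20%) and 8 did not pass, with a list median of 0.03 ± 0.16. Its extremes were fshr-1, a receptor of the intestinal immune response, at 1.06 ± 0.17, and the transcription factor gene hlh-30 at -0.61 ± 0.31. The kinase gene pmk-1 itself had -0.10 ± 0.29 (limma adjusted p = 0.64). Galectins, lectins of another fold, had 11 measured genes, of which 6 were higher (54.5%) and 1 lower (9.1%). Their median was 0.50 ± 0.16, from lec-8 at 1.68 ± 0.26 to lec-2 at -2.08 ± 0.98.

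**Figure D3:**
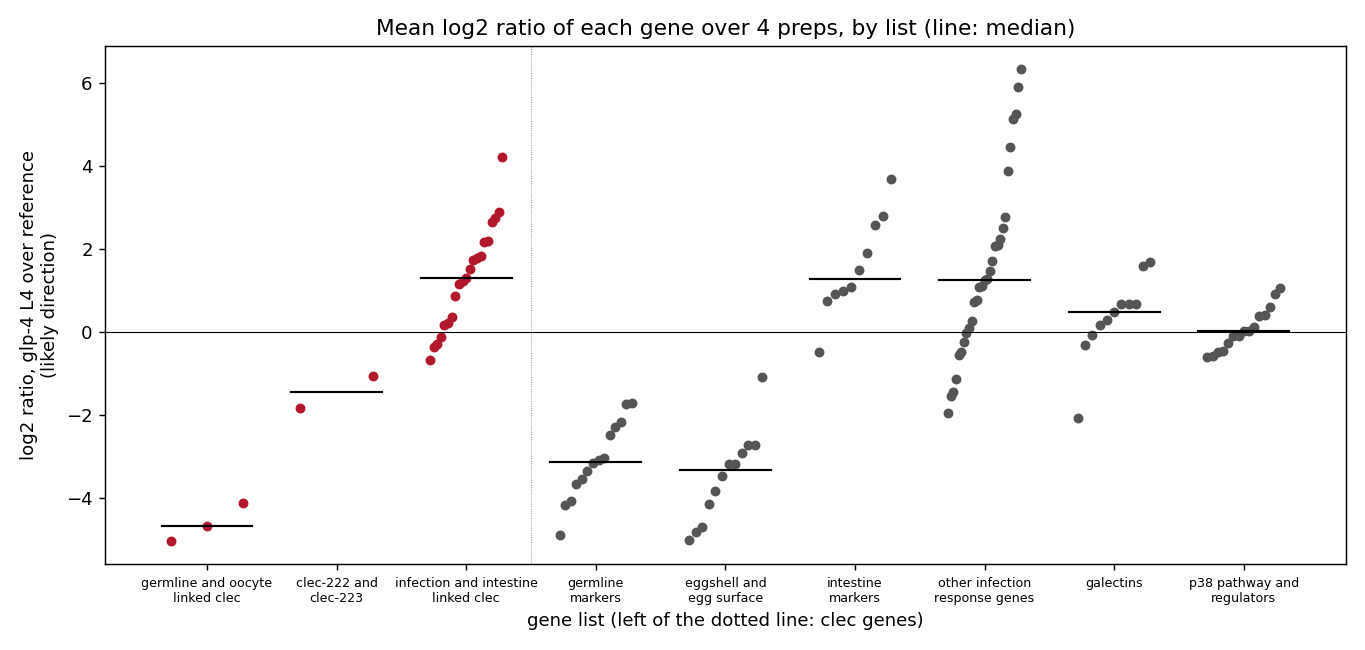
Mean log2 ratio over 4 preps (vertical axis) of each measured gene in 3 lists of clec genes and in 6 lists of other genes (horizontal axis), with a line at the median of each list. The 3 germline and oocyte linked clec genes lie between -5.04 and -4.12, and the 21 infection and intestine linked ones between -0.68 and 4.22.

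Many clec genes lie next to each other in the genome, and the runs differed from each other in their ratios. Members with at most 2 other protein-coding genes or pseudogenes between them were put in 1 group, with genes of other kinds not counted. This gave 41 groups with at least 2 measured members. Of these groups, 13 held higher members and no lower one, 6 held lower members and no higher one, 4 held both and 18 held no called member. In 7 groups every measured member was higher, and in 1 group, that of clec-222 and clec-223, every measured member was lower. Of the pairs of measured members, 63 had no protein-coding gene or pseudogene between them. Of these 63, 13 were both higher, 2 both lower, 35 both not called, 13 had 1 call and 0 had opposite calls. Single members were higher in 26.1% and lower in 13.3%. The same counts were not made for other neighbouring genes, so whether clec neighbours share calls more often than others was not tested.

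Beside F35C5, the group on clone F38A1 of chromosome IV was higher in all 5 measured members. Their means were 2.66 for clec-166, 2.20 for clec-170, 1.21 for clec-167, 0.80 for clec-165 and 0.63 for clec-168. The call of clec-168 was lost without prep 2 (limma adjusted p = 0.061). Pairs with both members higher were clec-41 with clec-225 (2.14 ± 0.68), clec-49 with clec-50 (2.03 ± 0.47), clec-186 with clec-187 (1.74 ± 0.31), and clec-2 at 0.92 ± 0.58 with clec-3 at 1.39 ± 0.85. Among the 18 groups with no call in any member were the 8 genes clec-127 to clec-134 on clone W10G11 of chromosome II, with means from -0.45 to 0.07, the 5 genes on clones C30H6 and C49C3 of chromosome IV, with means from -0.49 to 0.14, and the 4 genes on clone T25E12 of chromosome V, with means from -0.13 to 0.10. Opposite calls stood within 1 group for clec-21 at 0.96 ± 0.38 and clec-20 at -0.67 ± 0.52, and for clec-238 at 0.69 ± 0.06 and clec-239 at -0.73 ± 0.22. So they did for clec-136 at 0.57 ± 0.46 and clec-139 at -0.44 ± 0.24. The calls of clec-20, clec-136 and clec-139 were lost without prep 4 (limma adjusted p = 0.10, 0.17 and 0.17). Each was also lost on leaving out other single preps, so the opposite calls in these groups are uncertain. Among groups with opposite calls, the widest split was in that of clec-67 (2.19 ± 0.23) and clec-68 (2.03 ± 0.40). It also holds clec-79 (-0.76 ± 0.20), which lies on another clone. Only 3 of the 13 members of this group had a value. Neighbouring members can be close in sequence and bind each other's probes, so single values within such a run are uncertain, and probe sequences were not used here.

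**Figure D4:**
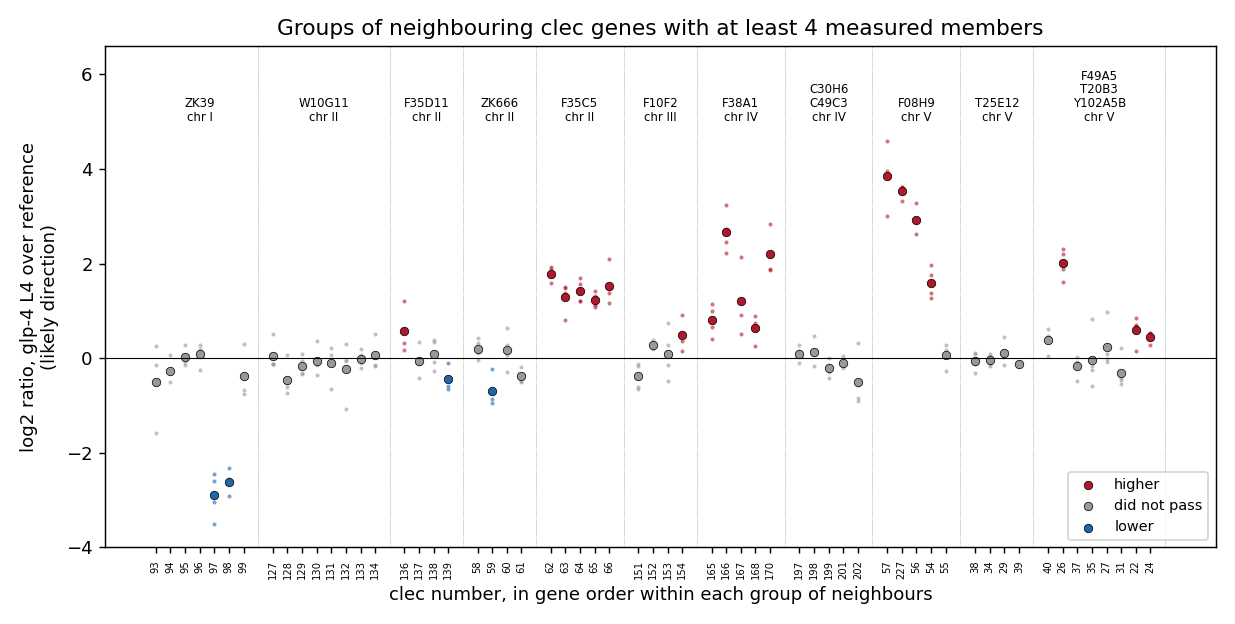
Log2 ratio of glp-4 L4 over reference (vertical axis) in groups of neighbouring clec genes with at least 4 measured members (horizontal axis, in gene order, each group headed by its clones and chromosome), with the mean outlined and each prep as a small point. The F35C5 and F38A1 groups are higher in all 5 measured members, the W10G11 group lies near 0, and clec-97 and clec-98 lie apart from the rest of the ZK39 group.

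By chromosome, V held 74 measured members, II 48, IV 35, I 29, III 15 and X 2. On chromosome IV 37.1% of the members were higher and 11.4% lower, against 23.6% and 26.6% of all named genes there. On chromosome V 29.7% were higher and 10.8% lower, against 24.2% and 18.6%. On chromosome I 10.3% were higher and 17.2% lower, against 17.6% and 32.4%, and that chromosome carried 4 of the 5 lowest members, clec-87, clec-91, clec-97 and clec-98. These shares were not tested. The 17 annotated pseudogenes had 2 higher and 0 lower calls, and 16 of them had a mean within 0.5 of 0. The 2 called ones were clec-154 at 0.49 ± 0.32 and clec-237 at 0.59 ± 0.28. Both calls were lost without prep 2 (limma adjusted p = 0.20 and 0.053).

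A few members differed widely between preps. The widest SD was that of clec-161 (F58A4.5, chromosome III), at 2.64, 0.45, 0.43 and 1.24, a mean of 1.19 ± 1.04. It passed (limma adjusted p = 0.021), did not without prep 4 (limma adjusted p = 0.068), and its mean without prep 1 was 0.71. The pseudogene clec-120 had 0.28, 1.04, -1.20 and -0.43, a mean of -0.08 ± 0.96, and did not pass. The 2 genes clec-3 and clec-12 followed, with SDs of 0.85 and 0.85. In clec-12 (T27F6.2, chromosome I) prep 1 was at 0.21, against -0.89, -1.59 and -1.58 on the other preps, and its lower call (limma adjusted p = 0.025) was lost without prep 2, 3 or 4 (limma adjusted p = 0.055, 0.12 and 0.11).

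The members nearest the threshold were close to each other. Just inside it lay clec-144 at 0.67 ± 0.63 and clec-118 at 0.54 ± 0.44 (limma adjusted p = 0.044 for each). The call of clec-144 was lost without prep 2 or 4, with a mean of 0.38 without prep 4, and that of clec-118 without prep 1, 2 or 4. Both calls were also lost when preps 3 and 4, whose titles share a code, were fitted as a random block. Just outside lay clec-61, above, and clec-128 at -0.45 ± 0.36 (limma adjusted p = 0.057), which was called lower without prep 1 (limma adjusted p = 0.0077). Among members with values on all 4 arrays, those nearest to 0 were clec-122 at -0.0013 ± 0.39, clec-259 at 0.01 ± 0.11 and clec-245 at 0.01 ± 0.25.

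More than 1 probe was available for 15 members, and their probe means differed by a median of 0.49. The ranges were largest for clec-216, whose probes had -1.24 and 0.10, and clec-246, whose probes had -0.65 and 0.47. The averages of these 2 genes, -0.57 ± 0.73 and -0.09 ± 0.36, did not pass, and the first was called lower without prep 1 (limma adjusted p = 0.012).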

How the data were processed

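Values came from 1 deposited table of log2 ratios between the channels of 4 arrays. The base of the logarithm follows from the numbers: 2 to the power of each value came out at whole thousandths, with a tolerance of 0.01 thousandths, for 100% of ratios under 20. What the authors did before they deposited the log2 ratios (scanner, background, dye normalization, spot filter) is not given in the sources used here, and intensities were not used, so the number of arrays limits the precision.

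Of 21632 probes, 16450 had 1 gene symbol, 247 several and 4935 none. Symbols came from the platform annotation, updated through a RefSeq gene table of assembly WBcel235 (16360 probes by gene ID, 8 by accession, 82 by symbol or locus tag). Where a gene had several probes, their mean per array was used. Items on at least 3 arrays (19989) entered a two-sided test of the mean against 0 (R 4.3.3, limma 3.58.1, lmFit and eBayes), called at a Benjamini-Hochberg adjusted p under 0.05, and a test with treat against a 2-fold change. The spread of the reference is left out, and p-values measure the spread between preps whose culture is not described. Of the members, 200 had values on 4 arrays and 3 on 3 arrays. Array medians were 0.02, -0.03, -0.12 and -0.08, and Pearson's r between arrays over all items ran from 0.74 to 0.90. The steps were tested on simulated data with independent normal noise on each array. That simulation does not cover effects of the shared reference or links between preps.

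Members and lists were chosen with earlier results of these data known. Named were the 10 highest and 10 lowest called members with 1 sign on 4 arrays, list members, the 5 widest SDs among members on 4 arrays, adjacent called pairs with absolute means of at least 2 or opposite calls, the 3 members on 4 arrays nearest 0, 2 on each side of the threshold, genes whose probes differed by over 1, and each comparison list's extremes. Others were named after their values were seen.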

Additional observations from a re-analysis of the deposited data

Results flagged for a closer look

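Examined were 56 sets of 4 values, those of the 52 members named by the set rules and of 4 medians. Of these sets, 3 had 1 prep far from the others by Dixon's ratio. At 1 in 20, chance gives about 2.8. The log2 ratio of clec-17 was 1.25 on prep 4, while the other preps had 1.97 to 2.06. That of clec-218 was -0.10 on prep 4, against 0.31 to 0.33. That of clec-63 was 0.80 on prep 3, against 1.38 to 1.497.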

How the results depend on the processing

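The 53 higher and 27 lower clec genes became 34 and 17 without moderation of the variances, 35 and 11 where the mean log2 ratio also had to be at least 1 in size, and 23 and 6 against a 2-fold change (limma treat). With every sign turned they were 27 and 53 by construction. Leaving out 1 prep gave 40 to 52 higher and 19 to 36 lower members. Under the other alternatives run (array medians set to 0, the same with equal scale, values on all 4 or on at least 2 arrays, preps 3 and 4 averaged, the code shared by their titles as a random block, a fit per probe, robust moderation and an adjusted p under 0.01) each count stayed within 1.5 times its value above. Centring gave 56 and 25. The correlation of the block, 0.358, came from the variance within and between blocks. The family median lay within its SD over preps, 0.15, of 0.07 under every alternative. None of the 52 members named by the set rules changed direction with a call under an alternative other than turning every sign, which was run for the counts and the median. Without moderation 10 of these 52 lost their call and 2 gained one. Members named after their values were seen are not among the 52, and these statements do not cover them. No paired analysis was possible because all 4 arrays belong to 1 group. Dim spots and compressed ratios could not be judged without intensities.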

Other observations

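Probes that the annotation gives to several genes were kept out of the family, and 2 of these name a clec gene. The probe shared by clec-13 and clec-15 had 0.85, 0.83, 1.69 and 1.62 on preps 1 to 4, a mean of 1.25 ± 0.47 (limma adjusted p = 0.00099). The separate probe of clec-13 had 1.05, 0.62, 1.62 and 1.56, a mean of 1.21 ± 0.47. The probe shared by T27C5.12 and clec-244 had a mean of 0.47 ± 0.26 (limma adjusted p = 0.033).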
